A study of Mus musculus with 6 samples.

Results

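The genes described here encode the enzymes that make sterols and fatty acids, the SREBP factors that control them and a pair of sterol exporters, in primary T cells exposed to disulfiram. The 32 genes were taken by symbol (regulators and targets of SREBP, enzymes of mevalonate, sterol and fatty acid synthesis, and efflux genes of the liver X receptor, LXR), with a mean count of at least 10 over the 6 libraries. All 32 met that minimum, of 55536 genes in the table, and all 32 were among the 14318 genes tested. The series, titled for T cell activation under disulfiram, holds RNA from wildtype primary OT-I T cells taken from lymph nodes of mice and kept in medium with serum. They were given disulfiram (DSF) or dimethyl sulfoxide (DMSO), the usual solvent, for 2 h, with 3 libraries per group. The T cell receptor of OT-I cells is a transgene that recognises ovalbumin, and DSF is a thiuram disulfide that inhibits aldehyde dehydrogenases. The labels state no DSF concentration, no age of the mice and no stimulation. Libraries are labelled as biological replicates but not tied to separate mice, so p-values measure the spread between these libraries, which may be technical. The columns are coded by letter, and every direction rests on reading the deposited codes DF and DO as DSF and DMSO, and library numbers on reading the number in a column name as the replicate.

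Cells make cholesterol from acetyl-CoA through mevalonate, isoprenoids, squalene and a chain of sterol intermediates. When sterol in the endoplasmic reticulum runs low, the escort protein SCAP carries the SREBP precursors to the Golgi, where they are cleaved into transcription factors for these enzymes, and INSIG proteins hold SCAP back when sterol is plentiful. Oxysterols, in turn, activate LXR, which raises sterol export. Dividing T cells draw on both sterol and fatty acid synthesis to build membrane.

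SREBP binds the sterol regulatory element (SRE), often beside the CCAAT box of the factor NF-Y, so promoter windows were searched for these letters. RefSeq windows (GRCm38.p6, 250 bases before to 50 after an annotated start) were found by symbol for 25 of the 32 genes. The SRE letters TCACNCCAC, on either strand, were present for 1 of these 25, Hmgcs1, and for 1.44% of all 27025 genes with a window. CCAAT, on either strand, was present for 20 of the 25 (80%), against 41.1% of all genes. The E-box CACGTG was present for 6 of the 25 (24%), against 8.09% of all genes. A match is a description of these letters, and no match says only that the letters are not in the window.

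The 4 windows shown belong to the gene with the SRE match and to 3 genes that were lower with DSF, from the regulators, the sterol enzymes and the fatty acid enzymes. Capitals mark the SRE and CCAAT letters, and ATTGG is CCAAT on the other strand. In Hmgcs1 the SRE begins at -137, counting the annotated start as base 0, and overlaps none of its 4 CCAAT boxes. In Fasn, 2 of the 3 CCAAT boxes, at -62 and -59, overlap each other on opposite strands.
Hmgcs1, chr13:119690101-119690400, + strand: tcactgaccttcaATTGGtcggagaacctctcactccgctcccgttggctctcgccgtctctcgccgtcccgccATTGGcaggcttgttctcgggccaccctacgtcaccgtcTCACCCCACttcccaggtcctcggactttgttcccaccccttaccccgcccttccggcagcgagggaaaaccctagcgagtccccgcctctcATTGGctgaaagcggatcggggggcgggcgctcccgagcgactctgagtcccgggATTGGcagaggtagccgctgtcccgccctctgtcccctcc
Insig1, chr5:28071162-28071461, + strand: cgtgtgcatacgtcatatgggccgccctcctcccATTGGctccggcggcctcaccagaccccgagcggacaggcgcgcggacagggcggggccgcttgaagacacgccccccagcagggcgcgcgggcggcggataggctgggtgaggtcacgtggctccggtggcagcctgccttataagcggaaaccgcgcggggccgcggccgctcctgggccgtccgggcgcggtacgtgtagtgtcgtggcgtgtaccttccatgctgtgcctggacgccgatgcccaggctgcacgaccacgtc
Lss, chr10:76531355-76531654, + strand: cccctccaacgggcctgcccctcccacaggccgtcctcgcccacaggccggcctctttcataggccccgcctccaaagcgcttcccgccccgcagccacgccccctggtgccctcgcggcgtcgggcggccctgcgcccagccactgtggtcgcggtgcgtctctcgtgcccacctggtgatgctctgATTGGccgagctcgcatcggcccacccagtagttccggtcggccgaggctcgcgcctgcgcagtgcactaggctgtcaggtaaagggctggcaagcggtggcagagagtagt
Fasn, chr11:120824498-120824797, - strand: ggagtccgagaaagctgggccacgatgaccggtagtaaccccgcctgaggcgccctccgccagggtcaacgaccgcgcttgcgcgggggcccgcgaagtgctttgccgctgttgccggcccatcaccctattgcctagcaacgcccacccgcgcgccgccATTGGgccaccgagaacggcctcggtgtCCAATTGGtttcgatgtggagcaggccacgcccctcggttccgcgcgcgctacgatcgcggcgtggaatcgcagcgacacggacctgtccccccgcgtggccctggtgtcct

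The DSF libraries held 18082264 to 20951998 estimated counts and the DMSO libraries 18528236 to 21893720. Levels are given as TMM-scaled CPM (counts scaled to a common library size), or as the authors' TPM where genes are compared with each other, since TPM also divides by length. Markers of T cells were high, with summed levels of 2732 to 2774 CPM in DSF and 2954 to 3037 CPM in DMSO over 10 genes, of which 6 were lower and 1, Cd2, was higher. Cd8a fell to 350 CPM in DSF, against 411 CPM in DMSO, and Cd4 averaged 1.63 CPM in DSF and 1.22 CPM in DMSO. Summed markers of CD4 T cells (6 genes, 2 higher, 1 lower) ran from 60.4 to 66.5 CPM in DSF and from 55.8 to 60.0 CPM in DMSO. Summed markers of B cells (15 genes, 2 lower) ran from 322 to 344 CPM in DSF and from 334 to 355 CPM in DMSO. Those of myeloid and dendritic cells (16 genes, 3 lower, Siglech at 0 in every library) ran from 61.5 to 64.4 CPM in DSF and from 69.8 to 72.2 CPM in DMSO. Those of natural killer cells (6 genes, 3 tested, 2 lower) ran from 39.6 to 41.8 CPM in DSF and from 49.3 to 51.3 CPM in DMSO. Most of that sum was Eomes, which was lower, at 34.6 CPM in DSF and 43.0 CPM in DMSO. Gzma was also lower, and Klrb1c, at 3.14 CPM in DSF and 2.92 CPM in DMSO, was not called. Ncr1, Klra8 and Klra4 were close to absent, with at most 4, 1 and 2 counts in any library, and were not tested. Summed markers of stroma, endothelium and erythroid cells (11 genes, 0 called) ran from 33.0 to 39.4 CPM in DSF and from 33.7 to 38.6 CPM in DMSO. Most of that sum was Pecam1, at 32.5 CPM in DSF and 33.2 CPM in DMSO. The part of these cells in the results was not tested, and in bulk RNA fewer cells of a type and less RNA per cell cannot be told apart.

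The comparison asked which transcripts of these pathways differed after 2 h of DSF, and most did not pass the test. At an adjusted p under 0.05 by edgeR's quasi-likelihood test, 6 of 32 genes (18.8%) were lower with DSF and 2 (6.25%) were higher, where 11.3% of all genes tested were lower and 11.6% higher. The 6 that fell were Lss, Stard4, Insig1, Acat2, Idi1 and Fasn, with log2 fold changes from -0.20 to -0.11, and the 2 that rose were Srebf1, by 13.2%, and the exporter gene Abcg1, by 56.5%. None of the 32 reached a 2-fold change, and their median absolute log2 fold change was 0.08, against 0.12 over all genes tested. Their median standard error was also smaller, 0.05 against 0.08, so those 2 medians differ in precision too. The median log2 fold change was -0.04, with 20 genes below 0 and 12 above. Over all genes tested the median was -0.003, with 7245 genes below 0 and 7073 above. The DSF libraries all lay below the DMSO libraries in 7 genes and all above them in 5, where this held for 17.9% and 17.6% of all genes tested. With limma on the deposited TPM, none of the 31 genes tested that way was called, the smallest adjusted p being 0.0739 (limma). Of all 13051 genes tested that way, only 513 or 520 were lower and 746 or 770 higher, depending on the constant added to TPM.

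**Figure D1:**
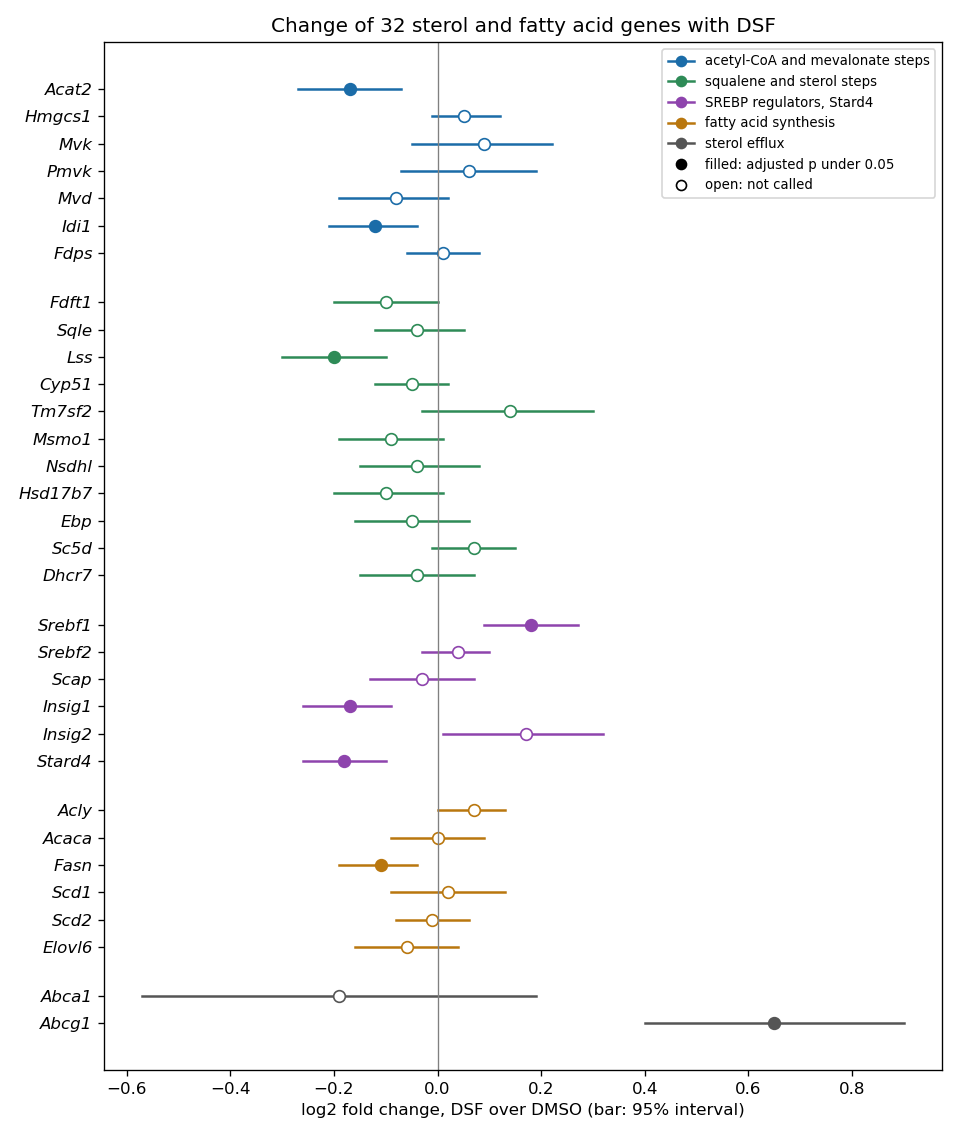
Log2 fold change, DSF over DMSO, of the 32 genes by role, with 95% intervals as bars and filled points for genes at an adjusted p under 0.05. Every point but that of Abcg1, at 0.65, lies between -0.20 and 0.18.

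The genes were expressed over a wide range. On the TPM scale, which takes account of length, Scd2, the main stearoyl-CoA desaturase of many non-liver tissues, was highest at 619 ± 3.78 TPM in DSF and 613 ± 47.8 TPM in DMSO (mean ± SD, n = 3 each, as throughout). Fdps, the farnesyl diphosphate synthase, followed at 311 ± 2.29 and 306 ± 9.47 TPM in DSF and DMSO, and Hmgcs1, which makes HMG-CoA, at 250 ± 3.71 and 233 ± 3.89 TPM. Next came Srebf2, at 161 ± 3.13 TPM in DSF and 155 ± 6.11 TPM in DMSO. Neighbours further down the order often did not differ beyond their spread, as with Cyp51, at 113 ± 3.45 TPM in DSF and 121 ± 6.44 TPM in DMSO, and Idi1, at 107 ± 5.29 TPM in DSF and 117 ± 10.8 TPM in DMSO. The exporters were lowest, with Abcg1 at 2.38 ± 0.146 TPM in DSF and 1.47 ± 0.25 TPM in DMSO, and Abca1 at 0.513 ± 0.219 TPM in DSF and 0.463 ± 0.191 TPM in DMSO.

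**Figure D2:**
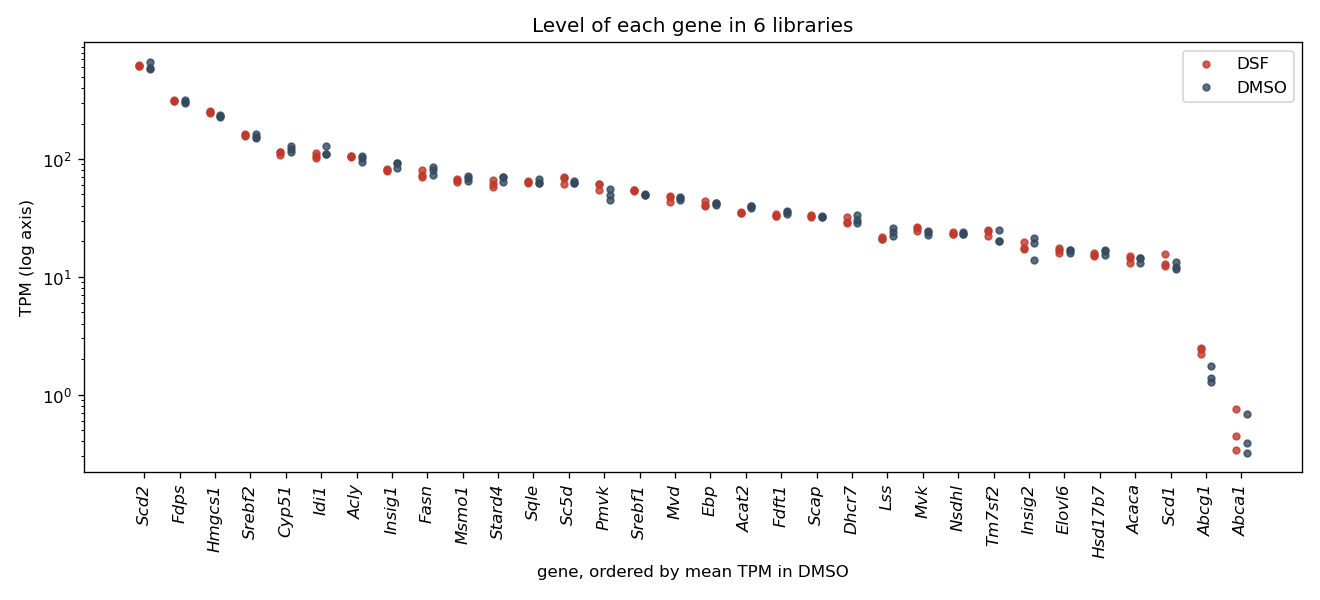
Level of each gene in TPM on a log axis, in order of the mean in DMSO, with 1 point per library and DSF left of DMSO. Scd2 stands highest and Abca1 lowest, and for most genes the points of both groups lie close together.

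Summed over the 18 enzymes from acetyl-CoA to cholesterol among the 32 genes, the level was 1345, 1322 and 1330 TPM in the DSF libraries. It was 1326, 1333 and 1320 TPM in the DMSO libraries. These 18 are not every enzyme of that route. The groups overlapped in that sum, and the ratio of their means was 1.00. The 7 genes of the acetyl-CoA and mevalonate steps summed to 841, 837 and 827 TPM in DSF and 825, 823 and 798 TPM in DMSO. Those groups did not overlap on the TPM scale, and the ratio was 1.02. Most of that sum was Fdps and Hmgcs1, with means of 311 and 250 TPM in DSF and 306 and 233 TPM in DMSO. Neither was called, and in CPM the groups of each overlapped. The called genes of these steps, Acat2 and Idi1, were lower in DSF. The 11 genes from squalene to cholesterol summed to 504, 485 and 503 TPM in DSF and 501, 510 and 522 TPM in DMSO. Those groups overlapped, and the ratio was 0.973. The 32 genes together made up 0.545 to 0.551% of the counts of a DSF library and 0.553 to 0.569% of those of a DMSO library.

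Of the 7 genes of the acetyl-CoA and mevalonate steps, 2 fell (28.6%), 0 rose and 5 were not called. The shares over all genes tested, 11.3% lower and 11.6% higher, stand beside this role and each role below. Acat2, a cytosolic acetyl-CoA acetyltransferase, was at 53.5, 54.8 and 54.8 CPM in DSF and at 61.9, 61.0 and 60.9 CPM in DMSO. All DSF values were below all DMSO values, and the log2 fold change was -0.17 ± 0.05 (SE; edgeR adjusted p = 0.00864). Idi1, the isopentenyl diphosphate isomerase, was at 237, 213 and 220 CPM in DSF and at 256, 243 and 232 CPM in DMSO. These groups overlapped, and Idi1 fell by 0.12 ± 0.04 on the log2 scale (edgeR adjusted p = 0.0279). That call ended without DSF library 2 or 3 or without DMSO library 1 or 2 (edgeR adjusted p = 0.228, 0.133, 0.142 and 0.0757). Acat2 and Idi1 had non-whole counts in all 6 libraries, as arises when reads are split between features, and exons of Idi1 overlap a gene on the opposite strand.

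Hmgcs1, whose promoter with the SRE letters is printed above, was at 603, 583 and 596 CPM in DSF and at 586, 564 and 567 CPM in DMSO. The groups overlapped, and its change of 3.76% had a 95% interval from -0.745 to 8.48% (edgeR adjusted p = 0.255). On the TPM scale Hmgcs1 was at 254, 250 and 246 in DSF and at 233, 229 and 237 in DMSO, where the groups did not overlap, with a log2 difference of 0.10 (limma adjusted p = 0.087). The kinase genes Mvk and Pmvk had log2 fold changes of 0.09 and 0.06, the decarboxylase gene Mvd had -0.08, and Fdps had 0.01, none of them called. The 95% interval of Fdps ran from -4.32 to 5.74%, and its exons overlap the gene Gm43738 on the same strand.

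Of the 11 genes from squalene to cholesterol, 1 fell (9.09%), 0 rose and 10 were not called. Of their log2 fold changes 9 of 11 were below 0, as were 7245 of 14318 over all genes tested. Lss, which encodes lanosterol synthase, the enzyme that closes the sterol rings, was at 73.7, 81.6 and 75.7 CPM in DSF and at 86.7, 88.2 and 90.7 CPM in DMSO. Every DSF library was below every DMSO library, and Lss had the largest fall of the 32 by log2 fold change, -0.20 ± 0.05 (edgeR adjusted p = 0.00217). Exons of Lss overlap an antisense gene over 3.53% of their bases, and no source used here says if reads were counted by strand.

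Sqle, whose epoxidase is a rate-limiting step after mevalonate, was at 128, 127 and 133 CPM in DSF and at 131, 130 and 137 CPM in DMSO, with overlapping groups and a 95% interval of the change from -8.12 to 3.22% (edgeR adjusted p = 0.583). Fdft1, the squalene synthase, had a log2 fold change of -0.10 ± 0.05 with an edgeR adjusted p of 0.151, and 18.3% of its exon bases are shared with Ctsb on the opposite strand. The demethylation genes Cyp51, Msmo1, Nsdhl and Hsd17b7 had log2 fold changes of -0.05, -0.09, -0.04 and -0.10. The genes of the later steps, Ebp, Sc5d and Dhcr7, had -0.05, 0.07 and -0.04, and the sterol reductase gene Tm7sf2, which shares 12.1% of its exon bases with Vps51 on the same strand, had 0.14. None of these passed the test.

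Of the regulators and Stard4, 2 of 6 fell (33.3%), 1 rose (16.7%) and 3 were not called. Insig1, which encodes a retention protein for SCAP and is itself an SREBP target, was at 151, 152 and 147 CPM in DSF and at 175, 173 and 158 CPM in DMSO. The groups did not overlap, and Insig1 fell by 0.17 ± 0.04 on the log2 scale (edgeR adjusted p = 0.00198). Insig2, the second retention protein, was at 21.9, 20.6 and 22.5 CPM in DSF and at 20.0, 20.2 and 17.6 CPM in DMSO. All its DSF values were above all DMSO values, but its log2 fold change of 0.17 ± 0.08 was not called (edgeR adjusted p = 0.121). On the TPM scale Insig2 was at 17.4, 17.2 and 19.6 in DSF and at 19.4, 21.3 and 14.0 in DMSO, where the groups overlapped.

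Stard4, a sterol carrier protein gene controlled by SREBP, lies on chromosome 18 from 33199355 to 33213862 (GRCm38) and shares no exon bases with another annotated gene. It was at 186, 185 and 177 CPM in DSF and at 215, 201 and 204 CPM in DMSO. The groups did not overlap, and its fall of 0.18 ± 0.04 on the log2 scale had the smallest p of the 6 genes that fell (edgeR adjusted p = 0.000466). On the TPM scale its groups overlapped, with 61.5, 66.0 and 57.8 TPM in DSF and 70.0, 63.8 and 69.7 TPM in DMSO.

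Srebf1, which encodes the SREBP-1 factors that favour fatty acid genes, was at 119, 124 and 117 CPM in DSF and at 100, 110 and 106 CPM in DMSO. All DSF values were above all DMSO values, and Srebf1 rose by 0.18 ± 0.04 on the log2 scale (edgeR adjusted p = 0.00305). Exons of Srebf1 share 1.93% of their bases with Rai1 on the opposite strand. The table gives 1 value per gene, so the SREBP-1a and SREBP-1c transcripts cannot be told apart. Srebf2, which encodes the SREBP-2 factor that favours sterol genes, was at 485, 504 and 499 CPM in DSF and at 470, 484 and 497 CPM in DMSO. Its groups overlapped, and its change of 2.47% had a 95% interval from -2.13 to 7.29% (edgeR adjusted p = 0.507). Scap was at 85.6, 90.2 and 90.4 CPM in DSF and at 87.8, 89.8 and 94.3 CPM in DMSO, with overlapping groups and an edgeR adjusted p of 0.723.

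**Figure D3:**
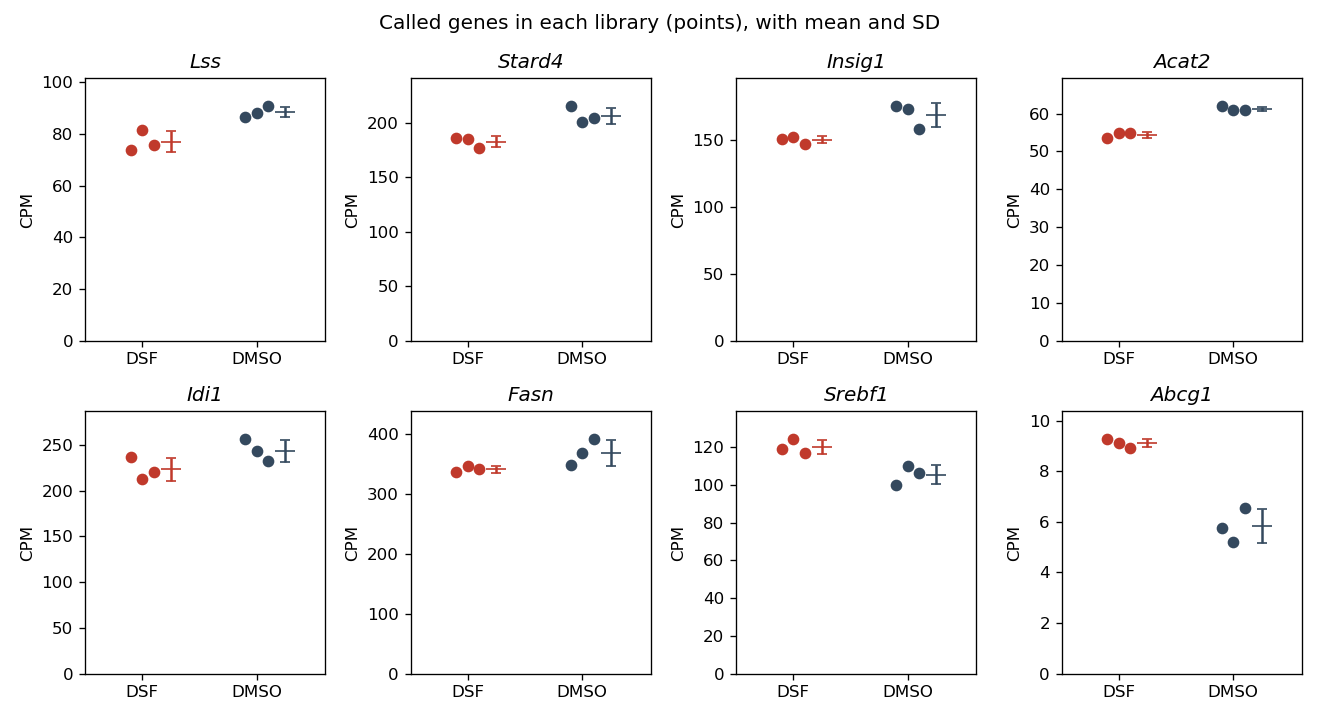
Levels in CPM of the 8 genes at an adjusted p under 0.05, with 1 point per library, DSF left of DMSO, and the mean with its SD beside the points. The groups overlap in Idi1 and not in the other 7 genes.

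Of the 6 fatty acid synthesis genes, 1 fell (16.7%), 0 rose and 5 were not called. Fasn, the fatty acid synthase gene, was at 336, 347 and 341 CPM in DSF and at 348, 368 and 391 CPM in DMSO. The groups did not overlap, but the highest DSF and the lowest DMSO library lay close together, and Fasn fell by 0.11 ± 0.04 on the log2 scale (edgeR adjusted p = 0.026). The call ended without any 1 of the DSF libraries (edgeR adjusted p = 0.128, 0.0633 and 0.0961 without library 1, 2 and 3) and without DMSO library 2 or 3 (edgeR adjusted p = 0.06 and 0.254). Without DMSO library 3 the log2 fold change was -0.06. On the TPM scale the groups overlapped, with 70.0, 80.4 and 72.8 TPM in DSF and 73.7, 80.7 and 84.7 TPM in DMSO.

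Acly, which makes cytosolic acetyl-CoA from citrate, was at 319, 327 and 323 CPM in DSF and at 300, 308 and 317 CPM in DMSO, all DSF values being above all DMSO values. Its log2 fold change of 0.07 ± 0.03 was not called (edgeR adjusted p = 0.167). Scd2 was at 1307, 1281 and 1328 CPM in DSF and at 1265, 1301 and 1381 CPM in DMSO, and its 95% interval ran from -5.26 to 3.91%. Scd1, another stearoyl-CoA desaturase gene, was at 46.7, 48.6 and 45.7 CPM in DSF and at 44.1, 45.5 and 49.1 CPM in DMSO, with an interval from -5.85 to 9.44%. Both had overlapping groups and non-whole counts in all 6 libraries. The carboxylase gene Acaca, with a 95% interval from -6.23 to 6.50%, and the elongase gene Elovl6, with one from -10.5 to 2.94%, were not called either.

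Of the 2 efflux genes 1 rose and 1 was not called. Abcg1, which encodes a sterol exporter and LXR target, lies on chromosome 17 from 31057675 to 31117988 (GRCm38). It was at 9.25, 9.11 and 8.93 CPM in DSF and at 5.74, 5.19 and 6.53 CPM in DMSO. The groups stood well apart, and Abcg1 rose 1.56-fold, a log2 fold change of 0.65 ± 0.12 (edgeR adjusted p = 0.000146), at percentile 96.3 of the log2 fold changes of all genes tested. Abca1, the other exporter and LXR target, was at 2.72, 2.81 and 2.78 CPM in DSF and at 2.65, 3.68 and 3.12 CPM in DMSO. It was not called, and at this low level its 95% interval was wide, from -32.7 to 13.9%. Its direction differed between scales, since mean TPM was higher in DSF, with 0.44, 0.76 and 0.34 TPM in DSF and 0.32, 0.68 and 0.39 TPM in DMSO.

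**Figure D4:**
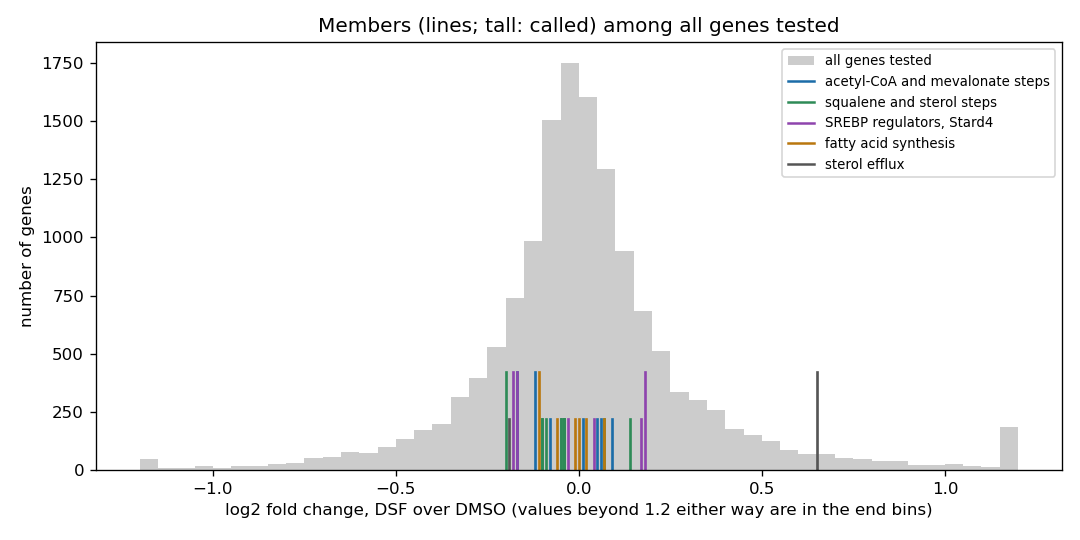
Number of genes by log2 fold change, DSF over DMSO, for all 14318 genes tested (grey), with a line for each of the 32 genes coloured by role, tall where the adjusted p was under 0.05. Abcg1 lies farthest right at 0.65, and the other 7 tall lines lie between -0.20 and 0.18.

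The authors' deposited table gave adjusted p-values under 0.05 to 8 of the 32 genes, 6 lower and 2 higher, and they were the same 8 genes. Over all 27139 genes tested in the authors' deposited table, 4.08% were lower and 4.47% higher at that threshold. That set is larger than the 14318 genes left by the count filter used here, which all 32 genes passed. The shares of the 32 are therefore not compared with like genes there. The authors' deposited table also carries a mark of significance, which 189 genes had and 0 of the 32 had. In the authors' deposited table the log2 fold changes of Abcg1, Lss, Stard4 and Srebf1 were 0.65, -0.20, -0.18 and 0.18.

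Other genes of the pathways came from lists chosen with earlier results of these data known. Of 111 listed genes found in the data, 99 were tested, of which 18 were lower and 8 higher (18.2% and 8.08%), with a median log2 fold change of -0.03. Over all genes tested, the shares to set beside these and each list below were 11.3% lower and 11.6% higher. Among 23 genes of sterol transport, esterification and remaining synthesis steps, 5 fell and 1 rose (21.7% and 4.35%). Gramd1a, which encodes a carrier of plasma membrane cholesterol to the endoplasmic reticulum, was at 370, 385 and 395 CPM in DSF and at 446, 477 and 493 CPM in DMSO. The groups did not overlap, and Gramd1a fell by 0.30 ± 0.04 on the log2 scale (edgeR adjusted p = 1.11e-07), with 8.02% of its exon bases shared with an antisense gene. Its relative Gramd1b fell by 0.12 ± 0.04 and Ggps1, which makes geranylgeranyl diphosphate, by 0.19 ± 0.06 on the log2 scale. The groups of Ggps1 overlapped (edgeR adjusted p = 0.0222). Its direction differed between scales, since its mean TPM was 19.7 in DSF and 19.2 in DMSO. Npc1, the lysosomal cholesterol exporter gene, rose by 0.13 ± 0.05. Exons of these 3 genes also overlap genes on the opposite strand.

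Among 15 genes that control SREBP processing or act beside it, 3 fell and 1 rose (20.0% and 6.67%). Among those that fell, the transcription factor gene Mlx fell by 0.22 ± 0.07 and the coactivator gene Ppargc1b by 0.78 ± 0.25 on the log2 scale. The level of Ppargc1b was low, averaging 1.37 ± 0.188 CPM in DSF and 2.37 ± 0.674 CPM in DMSO, and 19.3% of the exon bases of Mlx are shared with Psmc3ip on the opposite strand. Mbtps1 and Mbtps2, the SREBP protease genes, are named after their values were seen: they averaged 120 and 24.9 CPM in DSF and 122 and 25.0 CPM in DMSO and were not called.

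Among 34 other fatty acid and lipid synthesis genes, 5 fell and 4 rose (14.7% and 11.8%). Elovl5, a fatty acid elongase gene, had the smallest p of them. It was at 255, 240 and 251 CPM in DSF and at 135, 132 and 132 CPM in DMSO. The groups were far apart, and Elovl5 rose 1.87-fold, a log2 fold change of 0.90 ± 0.04 (edgeR adjusted p = 1.17e-18). Mid1ip1, whose product promotes acetyl-CoA carboxylase assembly, rose by 0.27 ± 0.05 on the log2 scale, and 25.5% of its exon bases are shared with an antisense gene. Dgat2, a triglyceride synthesis gene, and Acacb, the mitochondrial acetyl-CoA carboxylase gene, rose by 0.90 ± 0.26 and 0.68 ± 0.23 on the log2 scale, both at low levels. Dgat2 was at 2.16, 1.94 and 2.54 CPM in DSF and at 1.52, 1.18 and 0.89 CPM in DMSO. Dgat1, the other triglyceride synthesis gene, fell by 0.23 ± 0.04, the acyl-CoA synthetase genes Acsl5 and Acsl6 by 0.13 ± 0.04 and 0.65 ± 0.20, and the acyltransferase gene Agpat3 by 0.15 ± 0.04 on the log2 scale. The level of Acsl6 was also low, averaging 2.13 CPM in DSF and 3.36 CPM in DMSO.

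Among 11 other genes of the LXR branch, 1 rose and 1 fell (9.09% each). Arl4c, an LXR target gene that encodes a small GTPase, was at 69.9, 67.4 and 69.2 CPM in DSF and at 57.6, 61.3 and 63.1 CPM in DMSO. It rose by 0.18 ± 0.05 on the log2 scale (edgeR adjusted p = 0.00686). Rxra, a partner receptor of LXR, was at 1.66, 1.23 and 1.30 CPM in DSF and at 2.60, 3.59 and 2.47 CPM in DMSO. It fell by 1.06 ± 0.23 on the log2 scale (edgeR adjusted p = 0.000736), with no overlap between the groups. The LXR genes themselves are also named after their values were seen. Nr1h2, for LXR-beta, averaged 81.1 ± 0.974 CPM in DSF and 81.7 ± 5.27 CPM in DMSO, and Nr1h3, for LXR-alpha, averaged 0.515 CPM in DSF and 0.487 CPM in DMSO, neither of them called.

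Of 16 genes that use isoprenoids, 4 fell and 1 rose (25.0% and 6.25%). Rabggtb, a subunit of the enzyme that prenylates Rab proteins, was at 77.5, 72.8 and 78.6 CPM in DSF and at 101, 93.9 and 89.3 CPM in DMSO and fell by 0.31 ± 0.05 on the log2 scale (edgeR adjusted p = 1.59e-05). Its exons hold small nucleolar RNAs on the same strand. Coq2, of coenzyme Q synthesis, fell by 0.25 ± 0.06, and the prenyltransferase subunit genes Pggt1b and Fntb by 0.15 ± 0.05 and 0.23 ± 0.09. Fntb lay at the threshold (edgeR adjusted p = 0.0495), and 6.45% of its exon bases are shared with Churc1 on the same strand. Icmt, which methylates prenylated proteins, rose by 0.22 ± 0.05 on the log2 scale.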

How the data were processed

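RNA-seq of 3 DSF and 3 DMSO libraries was analysed from the deposited table. The build is GRCm38 (mm10) according to the submitters' processing notes; no source used here names the aligner, the counting program or the strandedness. The deposited table holds each library's estimated counts, which the authors did not normalise and of which 12.1 to 12.9% are not whole. It holds TPM per library and per group, per the file headers. It also holds the authors' fold changes (ratio and log2) and p-values, in a file titled as DESeq2 output. The deposited mean TPM headed DF equals that of the columns read as DSF, and DO that of those read as DMSO, in all 55536 genes within 0.0001 TPM. Unused columns of values per library numbered 0.

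Counts were rounded (whole counts had been assumed when the tests were chosen) and filtered with filterByExpr, which left 14318 genes and removed 41218. They were scaled by TMM and fitted by group alone with the robust quasi-likelihood test of edgeR 4.0.16 (R 4.3.3). Calls needed a Benjamini-Hochberg adjusted p under 0.05 over all genes tested. Standard errors were derived from the log2 fold change and its F statistic, and 95% intervals from them. A floor of 3 counts was worth 0.137 to 0.166 CPM, for counting error only. Replicates differed by more than counting error, with chi-square values of 2.22 to 4.28 per degree of freedom. Alternatives used DESeq2 1.42.0 and limma 3.58.1, other scalings and filters, each library left out, and a replicate term; the edgeR and DESeq2 fits were tested on simulated data. The members, lists and tests were chosen with earlier results of these data known. Called members and 12 chosen ones are given by library, and Acly is given too, outside that choice. Groups also did not overlap in Mvk (DSF above) and in Mvd and Ebp (DSF below), which were not called and are not given by library. Of each other list, the called genes with the smallest p are named, at most 4 in each direction, except that some genes are not reported here. Positions and exon overlaps came from GENCODE M21, which holds all 55536 identifiers, and promoter windows from RefSeq.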

Additional observations from a re-analysis of the deposited data

How the results depend on the processing

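The 6 lower and 2 higher genes were called under both other scalings, both other filters, DESeq2 and the replicate block. With limma on log2(TPM + 1) or log2(TPM + 0.1), 0 of the 31 members tested were called lower and 0 higher. Of all 13051 genes tested in those fits, 513 or 520 were lower and 746 or 770 higher. Among other pathway genes 3 were lower and 2 higher, and the cause was not tested. In those fits the 8 genes kept their direction, with adjusted p between 0.0739 and 0.463. DESeq2 called 11 other pathway genes lower. Leaving out 1 library at a time gave 4 to 5 members lower and 2 higher, 1231 to 1432 genes lower and 1334 to 1595 higher, and 11 to 14 other pathway genes lower and 5 to 6 higher. The fewest lower other pathway genes came without DMSO library 1 (11) and the fewest higher without DSF library 2 (5). Acat2, Insig1, Lss, Stard4, Abcg1 and Srebf1 were called without any 1 library.

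Log2 fold changes turned sign only in genes that were not called in any setting. Acaca had 0.001 with DESeq2's size factors, 0.003 with a mean count of at least 10, 0.001 with DESeq2, 0.018 and 0.020 with limma, and -0.02 to 0.027 without 1 library (0.002 without DSF library 1, 0.006 without DSF library 3). Scd2 had 0.018 in both limma fits and -0.04 to 0.029 without 1 library (0.007 without DSF library 2). Scap had 0.021 in both limma fits and -0.05 to 0.004 without 1 library, and Elovl6 had 0.027 and 0.029 with limma. Without 1 library Pmvk ran from -0.011 to 0.14, Fdps from -0.017 to 0.02, Scd1 from -0.009 to 0.07 and Dhcr7 from -0.08 to 0.001.

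With the replicate number as a block, 1904 genes were lower and 1925 higher. Same-numbered libraries had deviations that correlated at 0.057, 0.013 and 0.052. These values are small, and with 3 libraries per group they cannot show if the numbers pair the libraries. Each library's highest correlation was with its own number. Depth limits Abca1 most, whose 95% interval spans -32.7 to 13.9%.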
